A study of Mus musculus with 6 samples.

Results

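Cathepsins are proteases of the lysosome, and 10 of their genes were followed here: Ctsl, Ctsb, Ctss, Ctsk, Ctsh, Ctsc, Ctsz, Ctsd, Ctsa and Ctsm. They were taken from the 22442 genes of the deposited expression table by their mouse symbol in the GENCODE M21 annotation, and all 10 were found. The cells were mTECs, mouse renal tubular epithelial cells, which the labels describe as magnetically sorted and the paper as an immortalised line. Of the 6 RNA-seq libraries, 3 are labelled LPS and came from cells transfected with a negative control, and 3 are labelled LPSKD and came from cells transfected with an siRNA, whose target the labels do not name. The paper gives the target as Stat3 and lists an shRNA against the mouse gene. All 6 cultures, the controls included, then received LPS, a bacterial lipopolysaccharide, at 20 µg/ml for 24 h, so no library shows these genes without LPS. The labels give no age, sex or strain, and do not say whether the 3 libraries of a group were separate cultures, so the p-values measure only the spread between these libraries.

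Most cathepsins are cysteine proteases made as inactive precursors. They are tagged with mannose 6-phosphate in the Golgi, carried to endosomes and lysosomes, and cleaved to the active form once the proton pump has acidified the compartment. Cystatins and stefins hold in check the enzyme that escapes. In the kidney tubule the lysosomal cathepsins digest filtered proteins taken up by endocytosis, and the mouse also has a cluster of cathepsin genes on chromosome 13 that arose near Ctsl and is known for its expression in the trophoblast of the placenta. Ctsm belongs to that cluster.

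The coding stretch around the active site is shown for Ctsm, the lysosomal cysteine cathepsins and some placental ones. It was found by a search for a short motif that includes the cysteine, so the presence of that codon is no result. In the placental cathepsin Ctsr the search found no match. Each line gives 51 coding bases, 5′ to 3′ on the strand of the gene, and the capitals mark the codon of the catalytic cysteine. Ctsd, an aspartic protease, and Ctsa, a serine carboxypeptidase, have no such stretch. The stretches come from GENCODE M21 transcripts on GRCm38. All but that of Ctsz, which lies in exon 2, are joined from neighbouring exons, so that their coordinates span an intron.
Ctsl (chr13:64367051-64367868, minus strand, exons 5 and 6): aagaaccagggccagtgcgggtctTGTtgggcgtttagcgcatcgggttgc
Ctsb (chr14:63135693-63136427, plus strand, exons 4 and 5): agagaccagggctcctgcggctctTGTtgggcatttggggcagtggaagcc
Ctss (chr3:95543154-95545374, plus strand, exons 4 and 5): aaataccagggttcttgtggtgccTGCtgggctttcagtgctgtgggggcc
Ctsk (chr3:95501698-95502623, plus strand, exons 4 and 5): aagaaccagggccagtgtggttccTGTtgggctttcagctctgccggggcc
Ctsh (chr9:90064249-90064548, plus strand, exons 5 and 6): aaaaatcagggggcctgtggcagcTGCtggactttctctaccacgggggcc
Ctsc (chr7:88302291-88308053, plus strand, exons 5 and 6): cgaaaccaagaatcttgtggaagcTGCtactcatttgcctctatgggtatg
Ctsz (chr2:174438172-174438222, minus strand, exon 2): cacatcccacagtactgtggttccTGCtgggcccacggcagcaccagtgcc
Ctsm (chr13:61539089-61539559, minus strand, exons 4 and 5): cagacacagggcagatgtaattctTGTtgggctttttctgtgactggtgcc
Ctsj (chr13:61003207-61003715, minus strand, exons 4 and 5): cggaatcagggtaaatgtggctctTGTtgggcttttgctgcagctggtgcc
Cts3 (chr13:61567580-61568063, minus strand, exons 4 and 5): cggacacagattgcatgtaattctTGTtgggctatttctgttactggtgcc
Ctsj and Cts3 are placental cathepsins, shown as the most abundant of them in these libraries and the one nearest to Ctsm. Over the whole coding sequence, Ctsm was 67.0% identical to Ctsl, 72.8% to Ctsj and 89.9% to Cts3. The likeness bears on the counts. Of the 969 stretches of 31 bases in the coding sequence of Ctsm, 57.4% also occurred in a transcript of another gene, chiefly the predicted gene Gm49352 and Cts3. For Ctsd the share was 64.9%, all with the predicted gene Gm49369, and for Ctsb and Ctsh it was 3.34% and 3.51%. It was 0 for the other 6 members. Gm49352 (chr13:61538390-61568174, minus strand) overlaps Ctsm and Cts3 on the genome, and Gm49369 (chr7:142371096-142382667, minus strand) overlaps Ctsd. Stretches shared with these predicted genes can therefore be the same bases annotated under both, not a likeness between separate genes. Gm49352 and Gm49369 were listed at 0 in all 6 libraries. How the authors counted fragments that match more than one gene is not given in the sources used here.

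The values are FPKM, fragments scaled to the length of the gene and to the total of the library, and the library totals worked out from them lay between 24084827 and 25422171 fragments. Stat3 had a mean of 33.7 ± 2.02 FPKM in LPS libraries and 33.4 ± 2.35 FPKM in LPSKD libraries (SD, n = 3 each), and its log2 fold change was -0.01 (limma, adjusted p = 0.944). The target was therefore not lower at the RNA level in the libraries labelled LPSKD, and the groups keep their labels as names throughout. The paper itself reports Stat3 knockdown in mTECs, measured by real-time PCR and western blot. Markers of tubule epithelium such as Cdh16, Pax8 and Pax2 were present, whereas Slc34a1, the proximal tubule phosphate transporter, was at 0 and Lrp2, the endocytic receptor megalin, had at most 3 fragments in a library. The summed level of the 12 tubule markers was 3237 to 3315 FPKM in LPS and 3197 to 3230 in LPSKD. Of the 10 tested, Pax2, Pax8, Cdh16 and Aqp1 were called higher and Krt18 lower, and their part in the cathepsin values was not tested. Of all 11723 genes tested, 379 (3.23%) passed an adjusted p of 0.05, 184 higher and 195 lower in LPSKD.

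LPS 2 and LPS 3 stood apart from the other 4 libraries in transcripts of the placenta, which were present in all 6. Tpbpa, a marker of the spongiotrophoblast, was at 161 FPKM in LPS 1, 44.7 in LPS 2 and 35.9 in LPS 3, and between 117 and 171 in the LPSKD libraries. Prl3b1, a placental lactogen, was at 183, 57.9 and 49.5 FPKM in the LPS libraries and between 145 and 201 in the LPSKD libraries. The summed level of 8 trophoblast markers was 347, 105 and 86.2 FPKM in the LPS libraries and 265 to 378 in the LPSKD libraries. Prl3b1 and Tpbpa carried nearly all of it, all 8 were above 0 in at least 1 library, and Prl3d1, Ascl2 and Gcm1 had at most 10 fragments in any. LPS 1 thus lay with the LPSKD libraries in this sum. Of the 4 trophoblast markers tested, 3 were lower in both LPS 2 and LPS 3 than in each of the other 4 libraries. The exception was Prl2c2, at 1.33 FPKM in LPS 2 and 1.25 in LPSKD 2. Of all genes tested, 10.9% were lower in both LPS 2 and LPS 3 than in each of the other 4 libraries. The log2 fold changes of the 10 cathepsins and of the placental cathepsins are given below with and without these 2 libraries.

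The 10 cathepsins covered a wide range of levels, in an order that was the same in every library but LPSKD 2, where Ctsm was above Ctsk. From the highest mean FPKM to the lowest it ran Ctsl, Ctsd, Ctsb, Ctsa, Ctsc, Ctsh, Ctss, Ctsz, Ctsk and Ctsm. The lowest library of each gene was above the highest library of the next gene, except for Ctsk and Ctsm, whose ranges overlapped. Their summed level was 1455 ± 26.9 FPKM in LPS and 1316 ± 6.56 in LPSKD (SD, n = 3 each). Ctsl alone made up 55.8% to 58.2% of the sum in a library, and Ctsl, Ctsb and Ctsd together 87.0% to 88.6%. Ctsl was above 99.0% of the genes tested by mean level, and Ctsm was above 7.50% of them.

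**Figure D1:**
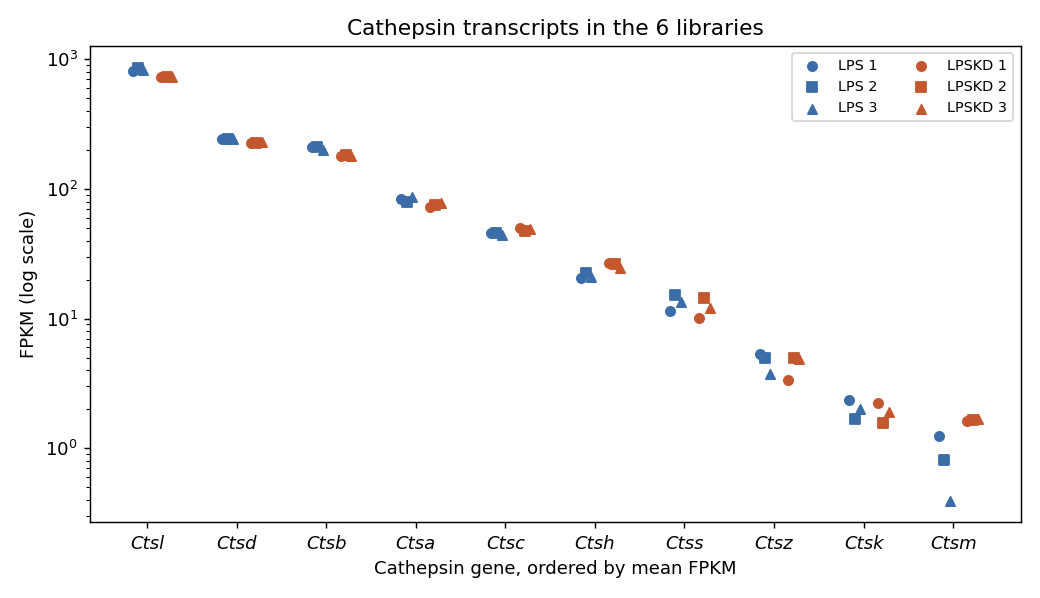
FPKM of the 10 cathepsin genes on a log scale, in order of mean level, with 1 point for each of the 3 LPS and 3 LPSKD libraries. Ctsl lies between 736 and 865 FPKM and Ctsm between 0.394 and 1.66, and the LPS and LPSKD points do not overlap for Ctsl, Ctsd, Ctsb, Ctsa, Ctsc, Ctsh and Ctsm.

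Ctsb and Ctsl were lower and Ctsh was higher in the libraries labelled LPSKD, by amounts between 11.8% and 21.4%. These 3 of the 10 cathepsins passed an adjusted p of 0.05 in limma, 1 higher where 1.57% of all genes tested were called higher, and 2 lower where 1.66% were called lower. The groups did not overlap for 7 of the 10, against 23.8% of all genes tested, and the exact two-sided permutation test gives p = 0.1 for each of the 7, the smallest it can give with 3 libraries against 3. The median log2 fold change of the 10 was -0.09, and that of all genes tested was -0.01. In bulk RNA, fewer cells of a type and less RNA per cell cannot be told apart. Without the variance trend in limma none of the 3 calls was made, with adjusted p-values between 0.0977 and 0.132.

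Among the cysteine endopeptidases, Ctsl (ENSMUSG00000021477, chr13:64359337-64370890, minus strand) is the broad protease that cleaves lysosomal and endocytosed proteins. Its level was 814, 865 and 827 FPKM in LPS 1, 2 and 3, and 737, 736 and 737 FPKM in LPSKD 1, 2 and 3. All LPSKD libraries lay below all LPS libraries, and the spread of the LPSKD libraries (SD 0.676 FPKM) was smaller than the 5.43 FPKM that counting error alone would give. The means fell by 11.8%, from 835 ± 26.6 to 737 ± 0.676 FPKM (SD, n = 3 each). The log2 fold change of Ctsl was -0.18 (SE 0.03, limma, adjusted p = 0.0262). It rested on 17848 to 21680 fragments in a library. The direction held in each fit with 1 library left out, with an adjusted p of 0.0166 without LPS 1, 0.0481 without LPS 2, and 0.0944 to 0.112 without any other library. Without both LPS 2 and LPS 3 the log2 fold change was -0.14 (limma, adjusted p = 0.131), a fit in which LPS 1 alone stood for its group and was assumed to vary like the LPSKD libraries.

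Ctsb (ENSMUSG00000021939, chr14:63122462-63145923, plus strand) can also trim dipeptides from the carboxy terminus. It was at 209.6, 209.3 and 201 FPKM in the LPS libraries and at 178, 183 and 179 FPKM in the LPSKD libraries, again without overlap. The mean fell by 12.8%, from 207 ± 4.79 to 180.3 ± 2.61 FPKM (SD, n = 3 each). This was a Ctsb log2 fold change of -0.20 (SE 0.03, limma, adjusted p = 0.0189), and its 95% interval ran from -0.27 to -0.12. The adjusted p was 0.0362 without LPS 1 and between 0.0501 and 0.0951 without any one of the other 5 libraries. Without both LPS 2 and LPS 3 the log2 fold change was -0.22 (limma, adjusted p = 0.0827).

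Ctss and Ctsk, both endopeptidases that lie next to each other on chromosome 3, did not separate the groups. Ctss (ENSMUSG00000038642, chr3:95526786-95556403, plus strand) removes the last fragments of the invariant chain from MHC class II in antigen-presenting cells. It was at 11.3, 15.3 and 13.4 FPKM in LPS and at 10.1, 14.5 and 12.0 FPKM in LPSKD. The log2 fold change of Ctss was -0.13, with a 95% interval from -0.47 to 0.20 (limma, adjusted p = 0.703), and it was 0.09 without both LPS 2 and LPS 3. Cd74, the invariant chain itself, was at 28.7 ± 2.91 FPKM in LPS and 31.9 ± 1.54 in LPSKD (SD, n = 3 each), 0.16 higher on the log2 scale (limma, adjusted p = 0.355). Ctsk (ENSMUSG00000028111, chr3:95499256-95509362, plus strand) is the collagen-degrading protease of the osteoclast. It was at 2.36, 1.67 and 1.99 FPKM in LPS and at 2.23, 1.55 and 1.91 FPKM in LPSKD, from 37 to 58 fragments in a library. Its log2 fold change was -0.08, with a 95% interval from -0.56 to 0.41 (limma, adjusted p = 0.898), and it was above 0 under quantile normalization and without LPS 1 or LPSKD 2. Without both LPS 2 and LPS 3 it was -0.31 (limma, adjusted p = 0.692).

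The exopeptidases differed among themselves. Ctsh (ENSMUSG00000032359, chr9:90054152-90076089, plus strand), an aminopeptidase, was the called gene that was higher in LPSKD. It was at 20.4, 22.4 and 21.1 FPKM in LPS and at 26.7, 26.2 and 24.7 FPKM in LPSKD, with every LPSKD library above every LPS library. The mean rose by 21.4%, from 21.3 ± 1.00 to 25.9 ± 1.03 FPKM (SD, n = 3 each). On the log2 scale the Ctsh difference was 0.28 (SE 0.06, limma, adjusted p = 0.0480), on 590 to 773 fragments in a library. Its adjusted p lay just under the threshold and was above it whichever library was left out, from 0.0520 without LPS 2 to 0.180 without LPSKD 1, with log2 fold changes between 0.25 and 0.32. Without both LPS 2 and LPS 3 it was 0.34 (limma, adjusted p = 0.127).

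Ctsc (ENSMUSG00000030560, chr7:88278085-88310888, plus strand) is dipeptidyl peptidase I, which activates the serine proteases of immune granules. The LPS libraries were at 45.9, 45.4 and 44.5 FPKM and the LPSKD libraries at 50.4, 47.7 and 48.7 FPKM. The groups did not overlap, yet the log2 fold change of 0.11 (SE 0.04, limma, adjusted p = 0.230) was not past the threshold, and it was 0.09 without both LPS 2 and LPS 3. Ctsz (ENSMUSG00000016256, chr2:174427493-174439039, minus strand), a carboxypeptidase, was at 5.34, 4.95 and 3.74 FPKM in LPS and at 3.36, 4.98 and 4.88 FPKM in LPSKD. The groups overlapped, and its log2 fold change of -0.09 had a 95% interval from -0.53 to 0.35 (limma, adjusted p = 0.862). Without both LPS 2 and LPS 3 it was -0.29.

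The 2 members that are not cysteine proteases had lower means in LPSKD without passing the threshold. Ctsd (ENSMUSG00000007891, chr7:142375911-142388038, minus strand) is the main aspartic protease of the lysosome and also processes the precursors of other cathepsins. It was at 245, 242 and 241 FPKM in LPS and at 225, 228 and 232 FPKM in LPSKD, a log2 fold change of -0.09 (SE 0.03, limma, adjusted p = 0.196). Ctsa (ENSMUSG00000017760, chr2:164832873-164841032, plus strand) is a carboxypeptidase that also protects neuraminidase and beta-galactosidase from degradation. It was at 83.0, 79.6 and 86.4 FPKM in LPS and at 72.7, 75.4 and 77.8 FPKM in LPSKD, a log2 fold change of -0.14 (SE 0.05, limma, adjusted p = 0.167). In both genes every LPSKD library was below every LPS library, and without both LPS 2 and LPS 3 the log2 fold changes of Ctsd and Ctsa were -0.10 and -0.14.

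**Figure D2:**
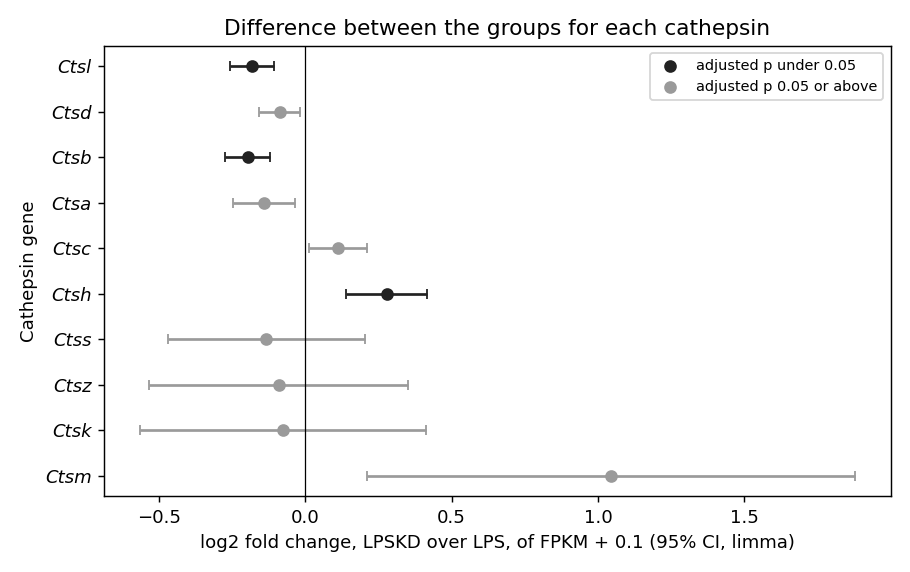
Log2 fold change of FPKM + 0.1 (LPSKD over LPS) for the 10 cathepsins with the 95% interval from limma, in order of mean level. Ctsl, Ctsb and Ctsh, in black, have adjusted p-values under 0.05, and the interval of Ctsm, from 0.21 to 1.88, is the widest.

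Ctsm (ENSMUSG00000074871, chr13:61535743-61541839, minus strand) had the largest fold change of the 10 and the fewest fragments, and it did not pass the threshold. It is one of the genes the study names on its plot of these same libraries, so its direction here is no independent evidence. Its level was 1.24, 0.811 and 0.394 FPKM in LPS 1, 2 and 3, from 32, 21 and 10 fragments. In LPSKD 1, 2 and 3 it was 1.62, 1.64 and 1.66 FPKM, from 42, 41 and 44 fragments. The LPS libraries differed widely among themselves, the LPSKD libraries hardly at all, and the groups did not overlap. Counting error alone would give an SD of 0.252 FPKM in LPSKD, where the observed SD was 0.0236, so the closeness of these 3 values is no measure of their precision. The exact 95% Poisson interval, which covers counting error only, ran from 21.9 to 45.2 fragments in LPS 1 and from 30.3 to 56.8 in LPSKD 1, and these overlap, whereas in LPS 3 it ran from 4.80 to 18.4 fragments. The mean was 0.814 ± 0.421 FPKM in LPS and 1.64 ± 0.0236 in LPSKD (SD, n = 3 each), and the log2 fold change was 1.04 (SE 0.36, limma, adjusted p = 0.189).

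The size of the Ctsm difference depended on the LPS libraries. Without LPS 3, the library with 10 fragments, the log2 fold change was 0.66 (limma, adjusted p = 0.347), whereas without LPS 2 it was 1.10 (limma, adjusted p = 0.243). It was 0.38 without both (limma, adjusted p = 0.610) and 1.38 without LPS 1 (limma, adjusted p = 0.0782). Over LPS 2 and LPS 3 the mean of Ctsm was 0.392 of its mean over the other 4 libraries. The same ratio was 0.362 for Ctsj and 0.304 for Ctsq, the leading placental cathepsins. As a share of Ctsj, Ctsm was 1.13%, 2.01% and 1.13% in the LPS libraries and 1.60%, 1.58% and 1.62% in the LPSKD libraries, and these shares overlap between the groups. The part of the placental transcripts in the Ctsm difference was not tested.

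The other placental cathepsins were far more abundant than Ctsm. Ctsj was at 109, 40.4 and 35.0 FPKM in LPS 1, 2 and 3 and at 101, 103 and 103 in the LPSKD libraries. Ctsq was at 92.4, 27.3 and 25.3 FPKM in LPS and at 80.4, 84.6 and 88.8 in LPSKD. Cts6 and Cts3 reached 34.8 and 29.4 FPKM in their highest library, and Ctsr 10.7 FPKM. All 5 were lower in LPS 2 and LPS 3 than in each of the other 4 libraries, as were 2 of the 10 members, Ctsm being one and Ctsc the other. LPS 1 lay above all 3 LPSKD libraries for Ctsj, Ctsq, Ctsr and Cts3 and within their range for Cts6. Their log2 fold changes lay between 0.72 and 1.08, their groups overlapped, and 0 of 5 were called (limma, adjusted p from 0.230 to 0.389), with 3 at an unadjusted p under 0.05 and 0 called by voom on the recovered fragments. Without both LPS 2 and LPS 3 all 5 log2 fold changes were below 0, between -0.33 and -0.09 (limma, adjusted p from 0.443 to 0.766). Cts7, Cts8 and Ctsll3 of the same cluster were listed at 0 in all 6 libraries.

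**Figure D3:**
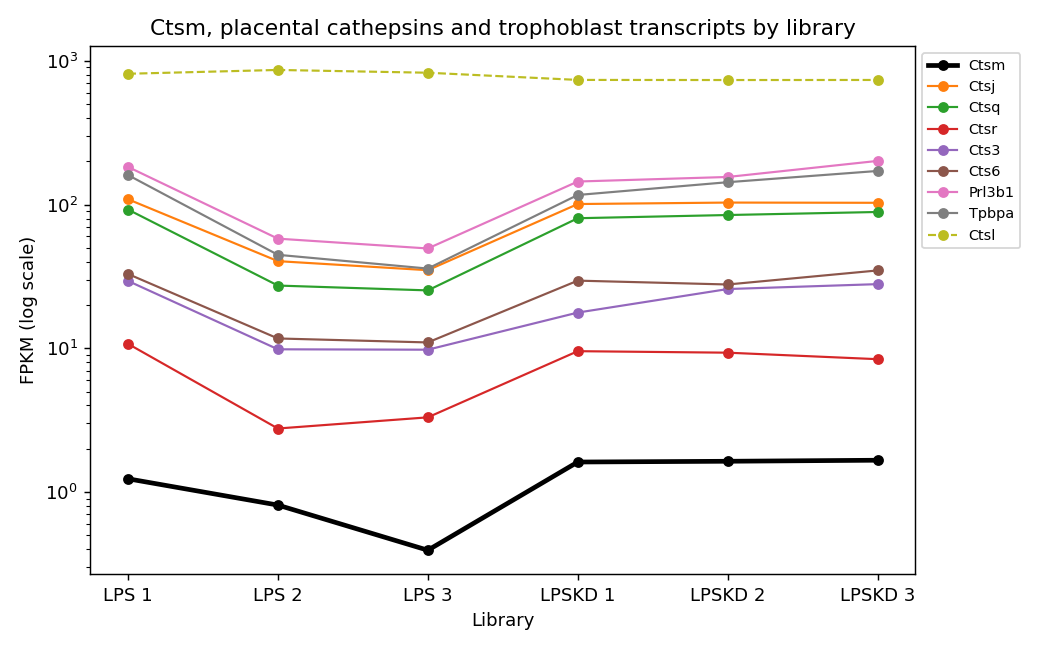
FPKM on a log scale in each of the 6 libraries for Ctsm, 5 placental cathepsins and the trophoblast transcripts Prl3b1 and Tpbpa, with Ctsl dashed for comparison. The lines join the values of 1 gene and stand for no order of the libraries. The placental transcripts are lower in LPS 2 and LPS 3, where Ctsj is at 40.4 and 35.0 FPKM, and Ctsl is not.

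Tested genes outside all the gene lists used here were ranked by the likeness of their pattern over the 6 libraries. The listed placental cathepsins and trophoblast markers were thus left out of this search. Nearest to Ctsm were Prl2c3, Taf7l and Epas1, with root mean square distances of 0.176, 0.184 and 0.213 between centred log2 values. Prl2c3, of the placental prolactin family, was at 4.67, 3.0 and 1.15 FPKM in LPS and at 4.81, 4.71 and 4.78 in LPSKD. Prl2c3, Taf7l and Epas1 all fell from LPS 1 to LPS 2 to LPS 3, as did Ctsm. These genes were picked by their likeness to Ctsm over the same values, so this order shows no link between Ctsm and Prl2c3 in particular. Nearest to Ctss in the same search were Sirpa, Rspry1 and Zfp983, at distances of 0.0358, 0.0447 and 0.0478. Sirpa, an inhibitory receptor of myeloid cells, was at 0.809, 1.17 and 1.01 FPKM in LPS and at 0.702, 1.02 and 0.868 in LPSKD. Rspry1 was at 9.31, 12.1 and 10.2 FPKM in LPS, and Zfp983 at 4.25, 5.70 and 4.74. In each group Sirpa, Rspry1 and Zfp983 were lowest in replicate 1 and highest in replicate 2, as was Ctss. Sirpa, Rspry1 and Zfp983 were likewise picked by their likeness to Ctss, so the shared order is no separate evidence.

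The cathepsins outside both the set and the placental cluster were low. Ctsw, of cytotoxic lymphocytes, was at 1.15 ± 0.0904 FPKM in LPS and 1.21 ± 0.0808 in LPSKD, and Ctso at 1.01 ± 0.356 and 0.944 ± 0.332 (SD, n = 3 each), with adjusted p-values of 0.917 and 0.929 (limma) and no unadjusted p under 0.05. Ctsf, Ctse and Ctsg were under the mean of 0.5 FPKM needed for a test, with highest values of 0.90, 0.104 and 0.0511 FPKM. As markers of macrophages, which are rich in cathepsins, Ptprc was at 0.372 to 1.08 FPKM and Adgre1 at 0.530 to 1.29 over the 6 libraries. The summed level of 8 macrophage markers without Cd68, itself a lysosomal protein, was 55.6 to 56.5 FPKM in LPS and 57.9 to 71.7 in LPSKD. Csf1r and Lyz2 made up most of this sum in each library, and 5 of the 8 tested markers, Cd68 among them, had lower means in LPSKD. The only one called was Csf1r, which was higher, from 24.4 ± 2.74 to 33.3 ± 0.583 FPKM (SD, n = 3 each; limma, adjusted p = 0.0208). It was also the only macrophage marker lower in both LPS 2 and LPS 3 than in the other 4 libraries, and without both of these it was not called (limma, adjusted p = 0.127). Its part in the cathepsin values was not tested.

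Of the inhibitors of cathepsins, Cstb and Cst3 were abundant, and 0 of the 6 tested were called in limma, with 3 at an unadjusted p under 0.05 and 0 called by voom on the fragments. Cstb, the cytosolic stefin B, was at 489 ± 34.1 FPKM in LPS and 558 ± 39.4 in LPSKD, a log2 fold change of 0.19 (limma, adjusted p = 0.169). Its highest LPS library, at 514 FPKM, lay below its lowest LPSKD library, at 528. Cst3, the secreted cystatin C, was at 222 ± 14.9 and 247 ± 9.86 FPKM (SD, n = 3 each; limma, adjusted p = 0.184). Of the 17 inhibitors listed, 15 were in the table and 6 of these were at 0 in all libraries.

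The rest of the lysosome gave 8 calls, all of them lower in LPSKD. The count was 0 with eBayes without trend, 2 without a filter on low values and 0 without both LPS 2 and LPS 3. Among 37 other hydrolases tested, 4 were called, 27 had a lower and 10 a higher mean, and the median log2 fold change was -0.06. Ppt1, which removes palmitate from proteins, fell from 35.8 ± 0.90 to 30.1 ± 1.05 FPKM (limma, adjusted p = 0.0372). Gla, the alpha-galactosidase missing in Fabry disease, fell from 19.3 ± 0.946 to 15.5 ± 0.548 FPKM (limma, adjusted p = 0.0443). Hgsnat and Sgsh, both needed to break down heparan sulfate, had log2 fold changes of -0.27 and -0.45 (limma, adjusted p = 0.0396 and 0.0462). Asah1, the acid ceramidase and the most abundant of this list, was at 221 ± 5.86 and 226 ± 3.33 FPKM (limma, adjusted p = 0.668).

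Of the 20 subunits of the V-ATPase tested, the proton pump that acidifies the lysosome, 2 were called lower and the median log2 fold change was -0.09. Atp6v0a1, of its membrane sector, was at 73.9, 72.9 and 71.2 FPKM in LPS and at 57.6, 54.3 and 60.5 in LPSKD, a log2 fold change of -0.34 (SE 0.05, limma, adjusted p = 0.00844). Atp6v1d, a stalk subunit, had a log2 fold change of -0.18 (limma, adjusted p = 0.0400), and Atp6v1g1, the most abundant, one of -0.06 (limma, adjusted p = 0.516). The list of MiT/TFE factors, which drive lysosomal genes, and of the mTORC1 arm that holds them in the cytosol had 2 of 8 tested genes called lower, Rragc and Fnip1, both of the mTORC1 arm, and 6 of the 8 had a lower mean. Of the factors themselves Tfeb, Tfe3 and Mitf were tested, and 0 were called (limma, adjusted p = 0.951, 0.522 and 0.0739). Mitf, with a log2 fold change of -0.45, was the one of these at an unadjusted p under 0.05, and voom called it lower (adjusted p = 0.0480). Rragc, a Rag GTPase, fell from 59.4 ± 3.92 to 49.7 ± 0.274 FPKM (limma, adjusted p = 0.0437), and Fnip1, a partner of folliculin, from 23.4 ± 0.625 to 19.6 ± 0.620 FPKM (limma, adjusted p = 0.0489). Lamtor1, which anchors this complex to the lysosome, was at 92.0 ± 3.17 and 89.1 ± 4.63 FPKM (SD, n = 3 each; limma, adjusted p = 0.690).

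In the remaining lists limma and voom called 0 genes. Among 17 activators and transporters of the lysosome 6 had an unadjusted p under 0.05, the median log2 fold change was -0.10, and the most abundant, Cd63, was at 711 ± 34.9 and 743 ± 9.35 FPKM (limma, adjusted p = 0.458). Among 9 genes of mannose 6-phosphate sorting 1 had such a p, the median was 0.01, and M6pr, the cation-dependent receptor, was at 199.8 ± 5.18 and 201 ± 5.27 FPKM (SD, n = 3 each; limma, adjusted p = 0.933). The count of 8 calls over these lists was 8 without LPS 1 and 1 without any other single library. The called share, 4 of 37 hydrolases, 2 of 20 pump subunits and 2 of 8 genes of the MiT/TFE and mTORC1 list, stands beside 1.66% of all genes tested that were called lower.

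**Figure D4:**
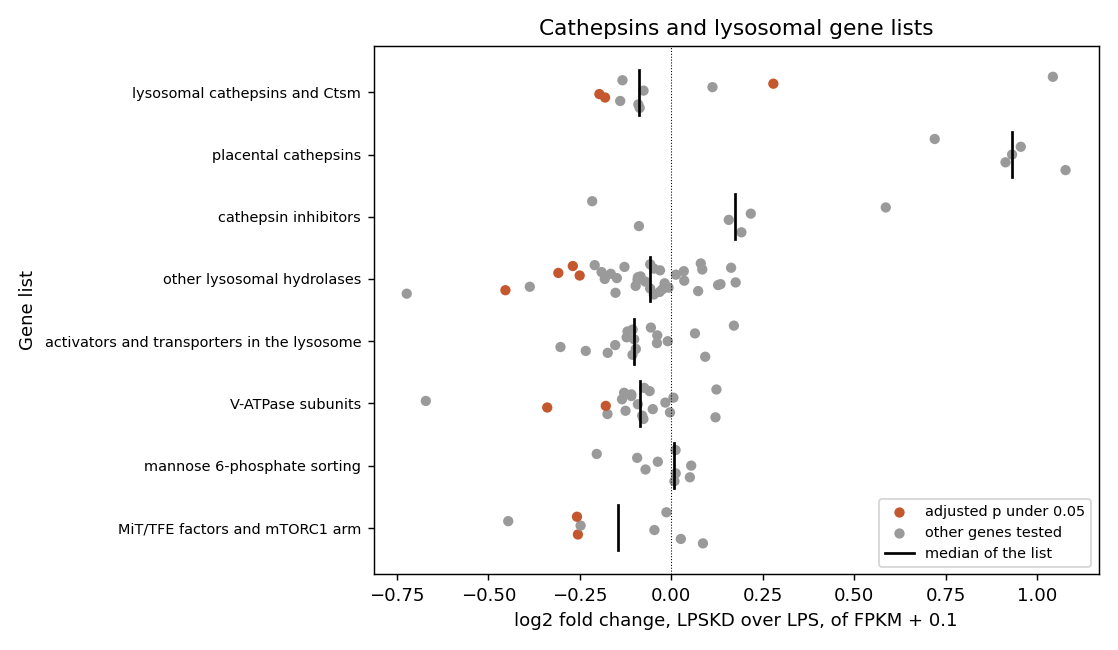
Log2 fold change of FPKM + 0.1 (LPSKD over LPS) of every tested gene in 8 lists, with 1 point per gene, the median of the list as a bar and genes with an adjusted p under 0.05 in orange. The placental cathepsins lie between 0.72 and 1.08, and the 8 called genes outside the cathepsins lie left of 0.

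Promoters of 8 of the 10 members are in the RefSeq table on GRCm38.p6, and the 250 bases before each start were searched on both strands for the letters of 4 known elements. CACGTG is the core of the element that TFEB binds in lysosomal genes and also lies within a longer palindrome with GT before it and AC after it. It was present for Ctsa, Ctsd and Ctsl, where 6.02% of all 32851 promoters held it, and the longer palindrome was present for none (0.240% of all). The 8 members have 9 promoter entries, 2 of them for Ctsa. Of these 2, the entry at chr2:164833523-164833822 held CACGTG and that at chr2:164832622-164832921 did not. Ctsd held CACGTG at 2 places. TTCNNNGAA, the letters of a STAT site, was present for Ctsc (7.02% of all), and GAAA, any 2 bases and GAAA again, the letters of an interferon response element, for Ctss (2.98% of all), 21 bases before its start. These matches are a description of the sequence. No promoter of Ctsm or of the 5 placental cathepsins above 0 held any of the 4. The matches of members are shown with the motif in capitals.
Ctsa (chr2:164833741-164833772, plus strand): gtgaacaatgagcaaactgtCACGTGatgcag
Ctsd (chr7:142388047-142388077, minus strand): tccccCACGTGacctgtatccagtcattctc
Ctsd (chr7:142387900-142387945, minus strand): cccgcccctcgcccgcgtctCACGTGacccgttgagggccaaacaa
Ctsl (chr13:64370731-64370770, minus strand): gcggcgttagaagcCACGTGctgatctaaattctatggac
Ctsc (chr7:88277835-88277877, plus strand): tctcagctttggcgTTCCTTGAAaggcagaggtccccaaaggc
Ctss (chr3:95526745-95526785, plus strand): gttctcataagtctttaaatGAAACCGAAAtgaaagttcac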

How the data were processed

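RNA-seq of mTECs was analysed in 6 libraries, 3 labelled LPS and 3 labelled LPSKD. The authors deposited FPKM values, 1 per gene and library, without pooling. The submitters' processing notes name HISAT2 2.0, StringTie 1.3.0 and Bowtie 0.12.2 and the builds mm8 and GRCh38.p13, with no role for either, so the authors' build is unsettled. Coordinates are those of GENCODE M21 on GRCm38. Of the identifiers, 22399 matched a symbol there and 43 did not.

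Multiplied by a library total and the coding length, to which up to 10 bases were added, the values of 16462 of 16837 genes above 0 (97.8%) were whole fragments within 0.02 in all libraries. With the totals raised by 0.1%, 0% of 9444 genes with at least 100 fragments were whole. Depth was even, so precision depends on a gene's own fragments. The Poisson intervals of Ctsm cover counting error only, whereas the limma intervals rest on the spread between libraries. Replicates differed by more than counting noise.

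Genes whose mean FPKM reached 0.5 were tested in limma 3.58.1 (R 4.3.3; lmFit, eBayes with trend) on log2(FPKM + 0.1), which understates changes of low genes, with Benjamini-Hochberg adjustment over all 11723 tested at 0.05. Exact permutation tests were two-sided over 20 assignments. Intervals are 95%. Sequence comparison and figures used Python 3.11.15, biopython 1.88 and matplotlib 3.10.9. On simulated data the fit recovered 199 of 200 genes changed by a factor of 2 and called 16 unchanged genes. Changes as small as those of the called cathepsins were not simulated. Alternatives were other pseudocounts and filters, quantile normalization, median centring, eBayes without trend, a replicate block, voom on the recovered fragments and each library left out. Leaving out LPS 2 and LPS 3 together was chosen after the data were seen.

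The members and lists were chosen with earlier results of these data known. Named were each member, Stat3, Cd74, each other or placental cathepsin above 0, and up to 4 called genes and the most abundant gene of each lysosomal list. From the tested genes outside all lists, the 3 nearest in pattern to Ctsm and the 3 nearest to Ctss were also named. Cst3, Tfeb, Tfe3, Mitf, Prl3b1, Tpbpa, the predicted genes and the single cell type markers were named after their values were seen. Csta2, Csta3 and Tmem55b were not matched. ChIP-seq samples were not analysed here.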

Additional observations from a re-analysis of the deposited data

How the results depend on the processing

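Ctsb, Ctsl and Ctsh kept their direction under each alternative. The calls among the 10 cathepsins were 1 without a filter, 0 with eBayes without trend, and 0 without both LPS replicates 2 and 3, against 3 as reported. With 1 library left out they ranged from 0 to 2. Over the lysosomal lists the 8 calls became 5 with the filter at a mean FPKM of 0.1, 2 without a filter, 5 with quantile normalization, 0 with eBayes without trend and 0 without both LPS replicates 2 and 3, and 1 to 8 with 1 library left out. Over all genes the 379 calls became 140 with eBayes without trend, 582 with voom on recovered fragments, 114 without both LPS replicates 2 and 3, and 158 to 357 with 1 library left out. The cause was not tested, beyond the smaller number of libraries where some were left out. Without both libraries 61.4% of calls were higher, against 48.6%.

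Over all genes tested, libraries with the same replicate number did not vary together. The deviations of same-numbered libraries from their group means correlated at -0.02, -0.0039 and -0.04, and no library correlated best with its own number. These correlations take all genes together, so they do not settle whether the samples were paired. With the number as a replicate block there were 213 calls over all genes, 0 among the cathepsins and 1 over the lysosomal lists, and the adjusted p-values of Ctsb, Ctsl and Ctsh were 0.0525, 0.0630 and 0.101 (limma).

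Log2 fold changes near 0 changed sign. That of Ctsk was 0.0006 with quantile normalization and ran from -0.20 to 0.0533 with 1 library left out, that of Ctsz ran from -0.24 to 0.09, and that of Ctss was 0.0891 without both LPS replicates 2 and 3. Of the values of single cathepsins under the alternatives, 137 kept their direction and their side of the threshold, 27 lost the call and 6 changed sign. Only Ctsb, Ctsl and Ctsh had a call to lose, and the 137 include genes that were never called. Ctsb was called in 8 of 10 alternatives with all 6 libraries and in 1 of 6 with 1 library left out. For Ctsl these counts were 7 of 10 and 2 of 6, and for Ctsh 6 of 10 and 0 of 6. Depth limits Ctsm most, with 10 to 44 fragments in a library.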

Other observations

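Transcripts of other placental gene families were present in these kidney cell libraries and shared the pattern of the placental cathepsins. The families were chosen after their values were seen, so no test is given. Of 16 tested genes of the prolactin family, 14 were lower in both LPS 2 and LPS 3 than in each of the other 4 libraries. All 12 tested pregnancy-specific glycoproteins, secreted by the trophoblast, and all 7 tested CEA-related adhesion molecules were as well. The median ratio of the mean over LPS 2 and LPS 3 to the mean over the other 4 libraries was 0.325 in the prolactin family, 0.311 in the glycoproteins and 0.243 in the adhesion molecules, and 1.01 over all genes tested. Prl8a9, of the prolactin family, was at 68.1, 19.8 and 18.8 FPKM in LPS 1, 2 and 3 and between 50.0 and 71.1 in the LPSKD libraries. Tpbpb, the neighbour of Tpbpa, was at 87.4, 22.4 and 20.8 FPKM in LPS and at 64.1, 77.5 and 98.3 in LPSKD. Of the marker lists, 3 of 4 trophoblast, 3 of 10 tubule, 1 of 8 macrophage and 0 of 6 fibroblast markers tested had the pattern.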
